A study of Mus musculus with 51 samples.

Results

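The definitive endoderm genes *Foxa2*, *Foxa1*, *Sox17*, *Sox7*, *Hhex* and *Cer1* were examined during Bmp4-driven cardiac mesoderm (ME) differentiation of mouse embryonic stem cells (mESCs). They were chosen by name, and all 6 were found among the 24538 genes of each of the 9 deposited expression tables, which give FPKM (fragments scaled to the length of the transcript and the size of the library). RNA-seq covered 14 conditions, and each has a single FPKM value per gene. F1G4 wild-type (WT) cells were profiled as ES cells (day 0, aggregates without Bmp4) and on days 1, 2 and 3 with Bmp4 at 20 ng/ml, with 2 labelled samples for each stage, which the labels do not describe as separate cultures. Cells lacking *Eomes* (*Eomes* KO), *T* (*T* KO) or both (*Eomes T* dKO) were profiled at days 2 and 3, while the *Smad4* line (WT and *Smad4* KO) was profiled at days 1 and 2, with 1 sample each.

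Both single KO lines of *Eomes* and *T* derive from F1G4 cells edited by double-nicking CRISPR/Cas9 around the promoter and first exon, and the dKO line derives from *Eomes* KO cells. The *Smad4* KO line was made by Cre excision of a floxed first exon in *Smad4* conditional mESCs, a line other than F1G4 (129S/SvEv and C57BL/6). Each KO line was expanded from single clones, so a property of a clone and the effect of its deletion cannot be told apart. All cells other than ES cells received Bmp4, and feeder cells were removed before differentiation. In the *Eomes* KO, *Eomes* FPKM was 0.276 on day 3 against 20.3 in WT cells, and in the *T* KO, *T* (brachyury) was 3.00 against 323. In the dKO on day 3 both were low, with *Eomes* at 0.346 and *T* at 1.93. More transcript remained on day 2, with *Eomes* at 2.42 against 9.42 in the *Eomes* KO and *T* at 6.64 against 44.8 in the *T* KO. In the dKO on day 2 *Eomes* was 1.24 against 9.40 and *T* 2.77 against 43.0. *Smad4* itself stood at 46.8 in *Smad4* KO cells and 39.3 in WT cells on day 2, and as only its first exon was deleted, this value per gene does not check the deletion.

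Definitive endoderm is the germ layer that lines the gut tube and gives rise to liver, pancreas and lung. It forms from the anterior primitive streak under high Nodal signalling, with *Eomes* acting upstream, whereas the posterior streak exposed to Bmp4 gives rise to mesoderm. *Foxa2* and *Foxa1* encode pioneer forkhead factors, *Sox17* and *Sox7* encode related SoxF factors, *Hhex* encodes a homeobox factor of anterior endoderm and liver, and *Cer1* encodes a secreted antagonist of Nodal and Bmp. None of these genes marks definitive endoderm alone. *Foxa2* is also expressed in the node and notochord and *Sox7* in endothelium, and extra-embryonic endoderm uses several of them.

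Of the 6 genes, *Foxa2* alone was above FPKM 1 on day 3 in WT cells. There *Foxa2* stood at 4.50, above 67.6% of all genes, and *Hhex* at 0.790. The other 4 genes stood at 0.255 (*Cer1*), 0.0797 (*Sox17*), 0.0443 (*Sox7*) and 0.0216 (*Foxa1*). Over all 14 conditions *Foxa2* was above FPKM 1 in 3 and *Hhex* in 2, and *Foxa1*, *Sox17*, *Sox7* and *Cer1* were above FPKM 1 in 0 of 14. In these bulk samples, fewer cells of a type and less RNA per cell cannot be told apart.

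The positions of the genes are given on GRCm38 (mm10), the build the authors used. *Foxa2* lies on chr2:148042877-148046969 and *Foxa1* on chr12:57540628-57548029. *Sox17* lies on chr1:4490928-4497426 and *Sox7* on chr14:63943706-63950732, and *Hhex* and *Cer1* lie on chr19:37434841-37440731 and chr4:82881751-82885151. Promoter sequences (250 bases before to 50 after a transcript start, 300 in all) were taken from RefSeq (GRCm38.p6) and matched 4 of the 6 genes by symbol. Those of the genes whose values varied with stage or KO are shown, with *Foxa2* at the start of the transcript whose length fitted its values (chr2:148045899-148046198, minus strand) and at its most downstream annotated start (chr2:148045415-148045714, minus strand), *Hhex* (chr19:37434591-37434890, plus strand) and *Cer1* (chr4:82885102-82885401, minus strand). Capitals mark matches to the searched motifs on either strand.
*Foxa2*, start of the fitted transcript: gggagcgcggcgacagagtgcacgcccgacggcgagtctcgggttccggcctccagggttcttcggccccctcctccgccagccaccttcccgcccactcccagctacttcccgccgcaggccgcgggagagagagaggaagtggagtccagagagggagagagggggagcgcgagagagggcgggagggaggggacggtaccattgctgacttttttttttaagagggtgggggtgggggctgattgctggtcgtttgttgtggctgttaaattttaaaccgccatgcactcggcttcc
*Foxa2*, most downstream start: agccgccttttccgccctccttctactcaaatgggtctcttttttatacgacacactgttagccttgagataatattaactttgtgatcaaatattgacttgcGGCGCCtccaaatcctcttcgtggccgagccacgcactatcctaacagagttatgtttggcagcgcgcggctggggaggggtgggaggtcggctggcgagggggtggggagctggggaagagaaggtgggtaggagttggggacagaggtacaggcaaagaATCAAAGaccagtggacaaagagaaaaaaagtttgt
*Hhex*: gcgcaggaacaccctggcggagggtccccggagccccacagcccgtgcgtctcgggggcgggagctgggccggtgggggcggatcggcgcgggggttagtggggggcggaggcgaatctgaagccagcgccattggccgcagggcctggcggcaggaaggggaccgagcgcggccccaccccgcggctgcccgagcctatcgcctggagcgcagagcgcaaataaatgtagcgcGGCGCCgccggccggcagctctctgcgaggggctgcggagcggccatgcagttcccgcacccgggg
*Cer1*: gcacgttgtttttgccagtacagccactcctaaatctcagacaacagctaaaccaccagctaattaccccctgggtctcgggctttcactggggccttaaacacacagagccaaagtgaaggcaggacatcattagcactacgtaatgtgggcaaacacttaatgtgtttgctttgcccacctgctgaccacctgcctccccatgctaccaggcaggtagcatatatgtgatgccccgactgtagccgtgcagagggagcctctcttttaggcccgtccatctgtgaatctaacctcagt

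The motifs were the T-box site AGGTGTGA and its core TCACACC, which overlaps it on the other strand, the Foxh1 sites AATCCACA and AATACACA, the Smad sites GTCTAGAC and GGCGCC and the Tcf/Lef site CTTTGAT. The capitals in the downstream *Foxa2* promoter are GGCGCC at position −147 from the start and the Tcf/Lef letters, read on the opposite strand, at position 14, and the *Hhex* promoter held GGCGCC at position −16. GGCGCC was found in 11.9% of all 32851 promoters of the same length and the Tcf/Lef letters in 3.73%. The T-box site (1.28% of all promoters), its core (3.98%), the Foxh1 sites (0.855% and 0.980%) and GTCTAGAC (0.213%) were not among the letters of the promoter windows of *Foxa2*, *Foxa1*, *Hhex* and *Cer1*. These matches are letters in a window and describe no binding.

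The FPKM values carried the whole fragments they were made from. In each column of a KO line or of the *Smad4* line, FPKM multiplied by transcript length fell on whole multiples of a single step, as 1 library gives, for 87.7% to 88.9% of genes of 1 transcript over 1000 bases below 100 fragments (within 0.02 of a whole number). In the F1G4 WT columns it fell on whole-number combinations of 2 steps, as the mean of 2 libraries gives. In units of 1e6 scaled fragments, the steps correspond to library sizes of 18.1 to 37.4 in the columns of 1 library and of 21.8 to 29.0 in the WT libraries. Fragments and, in WT cells, the share of each library could thus be given for most values of the 6 genes. For *Foxa2*, 9 of 10 values of single libraries were whole at the length of NM_001291065 (2070 bases) and 0 at that of either other RefSeq transcript, and for *Sox17*, with 5 transcripts, fragments are approximate.

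**Figure D1:**
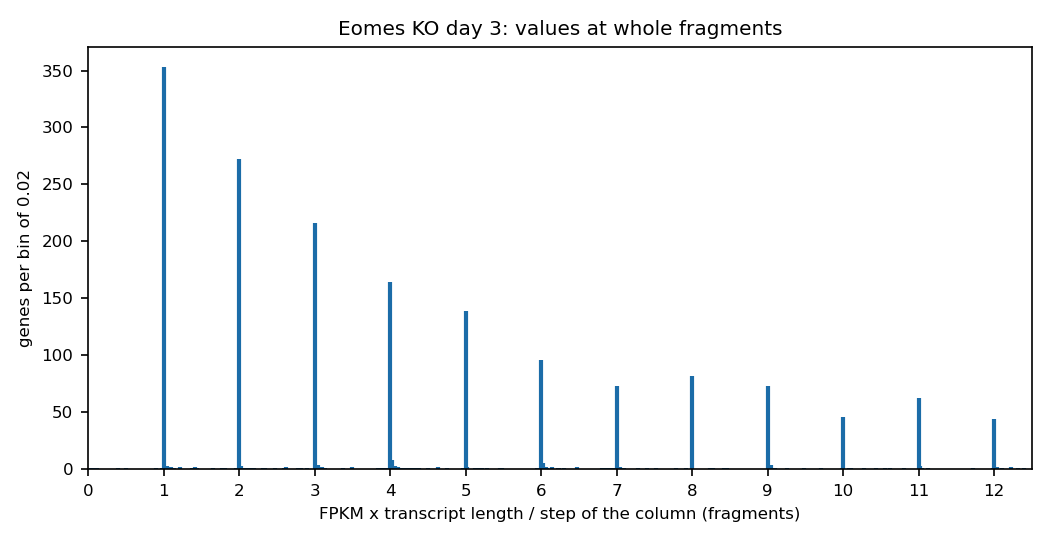
Number of genes (vertical axis, per bin of 0.02) by FPKM times transcript length over the step of the column (horizontal axis, in fragments) in *Eomes* KO cells on day 3, for genes of 1 transcript. Of the 1794 genes below 12.5 fragments, 91.4% lay within 0.02 of a whole number, so the bars stand at whole numbers with almost nothing between.

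The 2 WT libraries of a stage differed by more than counting error. This was measured on genes whose fragments could be divided between the libraries. Of genes of 20 to 100 fragments these were 898 of 1131 in ES cells, 876 of 1172 on day 1, 912 of 1131 on day 2 and 892 of 1057 on day 3. Among them the median difference between the libraries was 1.52-fold in ES cells, 1.58-fold on day 1, 1.72-fold on day 2 and 2.01-fold on day 3. On day 3, 50.2% of these genes differed by more than 2-fold, against 27.6% in ES cells. Of 792 genes of 5 to 20 fragments on day 3, 695 could be divided, and 53.2% of these had all fragments in 1 library. The 95% intervals given for these genes therefore cover counting error only and are too narrow as a measure of replicate error, the more so since PCR-amplified fragments without molecular identifiers are not independent molecules. No p-value was computed, because a KO column holds 1 library.

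**Figure D2:**
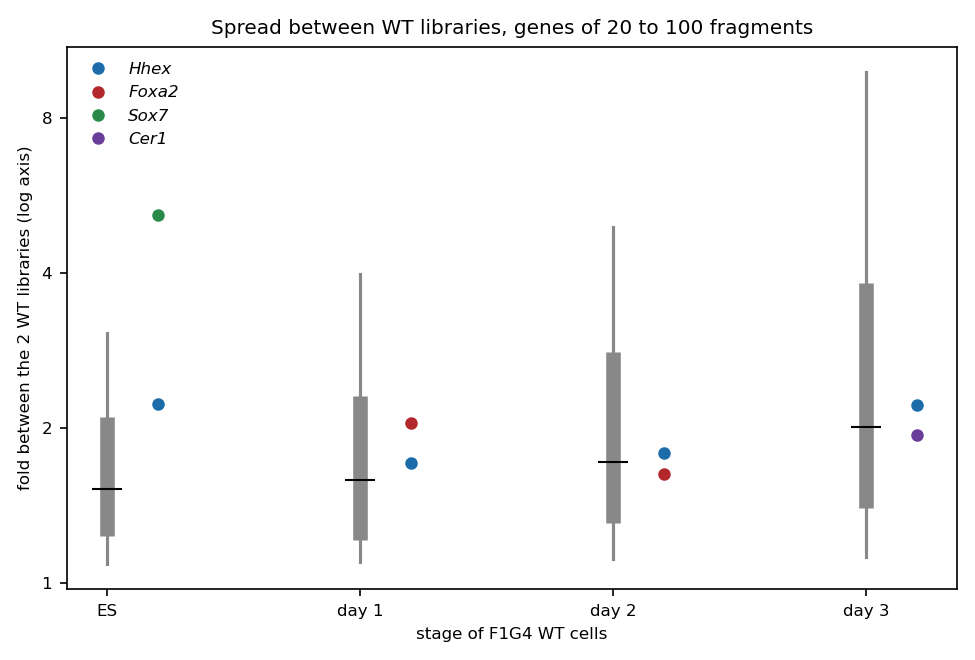
Fold between the 2 F1G4 WT libraries of a stage (vertical axis, log scale) by stage. It covers genes of 1 transcript with 20 to 100 fragments that could be divided between the libraries. Black marks are medians, thick bars run from the 25th to the 75th percentile and thin lines from the 10th to the 90th percentile. Coloured points are members with at least 20 fragments in both libraries together, which lie between 1.62-fold (*Foxa2* on day 2) and 5.19-fold (*Sox7* in ES cells).

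*Foxa2* was the gene of the set that was called higher during differentiation of WT cells. Its FPKM went from 0.0258 in ES cells through 0.377 (day 1) and 0.510 (day 2) to 4.50 (day 3). These correspond to 3 fragments in ES cells (3 and 0 in the 2 libraries), then 39 (27 and 12), 56 (36 and 20) and about 517 at the 3 later stages, of which the last could not be divided between the libraries. In the same order the counting intervals were 0.00600 to 0.0850, 0.273 to 0.525, 0.390 to 0.670 and 4.12 to 4.91. The higher levels thus came in a step after ES cells and a step after day 2, and days 1 and 2 were not apart beyond counting error. Day 2 over day 1 gave a log2 ratio of 0.43 (counting interval −0.19 to 1.06), and day 3 over day 2 gave 3.14 (2.73 to 3.55), an 8.83-fold difference. Against either WT library of day 2 alone it was 2.83 or 3.53.

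A gene was called changed by the authors' rule, FPKM above 1 in at least one group and log2 ratio above 1 or below −1, which carries no test. From day 2 to day 3, 1 of the 6 genes was called, *Foxa2*, where 10.2% of the 11394 examined genes were called (6.14% higher and 4.06% lower). From ES cells to day 3, *Foxa2* was again called higher (31.1% of all examined genes were called, 18.5% higher and 12.6% lower), and *Hhex* was the other examined member. From ES cells to day 1 (13.5% of all examined genes called, 7.7% higher and 5.84% lower) and from day 1 to day 2 (11.3%, with 7.18% higher and 4.13% lower), 0 of 6 genes were called, and 1 and 0 of them reached the FPKM minimum. With so few members above FPKM 1, these counts are close to what the background gives.

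*Hhex* was the only member above FPKM 1 in ES cells. Along the 4 stages its FPKM was 1.07, 0.556, 0.514 and 0.790, from 90, 49, 47 and 79 fragments. In each stage the 2 libraries differed by 1.71-fold to 2.22-fold. They stood at 0.665 and 1.48 in ES cells, then at 0.702 and 0.411, at 0.369 and 0.658, and at 1.09 and 0.491. The ranges of the libraries overlap between every pair of stages except ES cells and day 2, whose nearest values were 0.665 and 0.658. The log2 ratio of day 1 to ES cells, −0.94, and that of day 3 to day 2, 0.62, are therefore within the spread between WT libraries.

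*Cer1*, the secreted antagonist, appeared on day 3. It was listed at 0 in ES cells, where 3 fragments would give FPKM 0.0346, had 1 fragment each on days 1 and 2 (0.0112 and 0.0104), and reached 0.255 on day 3 with 25 fragments. On day 3 both libraries held it, with 17 and 8 fragments (0.336 and 0.174). Against ES cells taken at 3 fragments over both libraries, the listed day 3 value is 7.38-fold higher. With the counts of both stages free to vary, the lower limit of the log2 ratio was 2.50. It remained under the FPKM minimum and was not called.

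The SoxF genes and *Foxa1* were below FPKM 1 at all 4 stages. *Sox7* had its highest value in ES cells, 0.261, but 40 of its 46 fragments came from 1 library (0.437 against 0.0842). On days 1, 2 and 3 *Sox7* stood at 0.0178, 0.00616 and 0.0443, from 3, 1 and 8 fragments. Against ES cells it was lower beyond counting error on day 1 (log2 −3.87, −6.25 to −2.28) and day 3 (−2.56, −3.97 to −1.58), while 1 of the 2 ES libraries stood at 0.0842. *Sox17* ranged from 0.0492 to 0.0797 over the 4 stages, with about 9, 10, 9 and 15 fragments. *Foxa1* ranged from 0.0112 to 0.0391 with 2, 6, 4 and 4 fragments, which came from 1 library in ES cells, on day 2 and on day 3. For *Sox17* and *Foxa1*, no counting interval of a ratio between stages excluded equal levels.

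**Figure D3:**
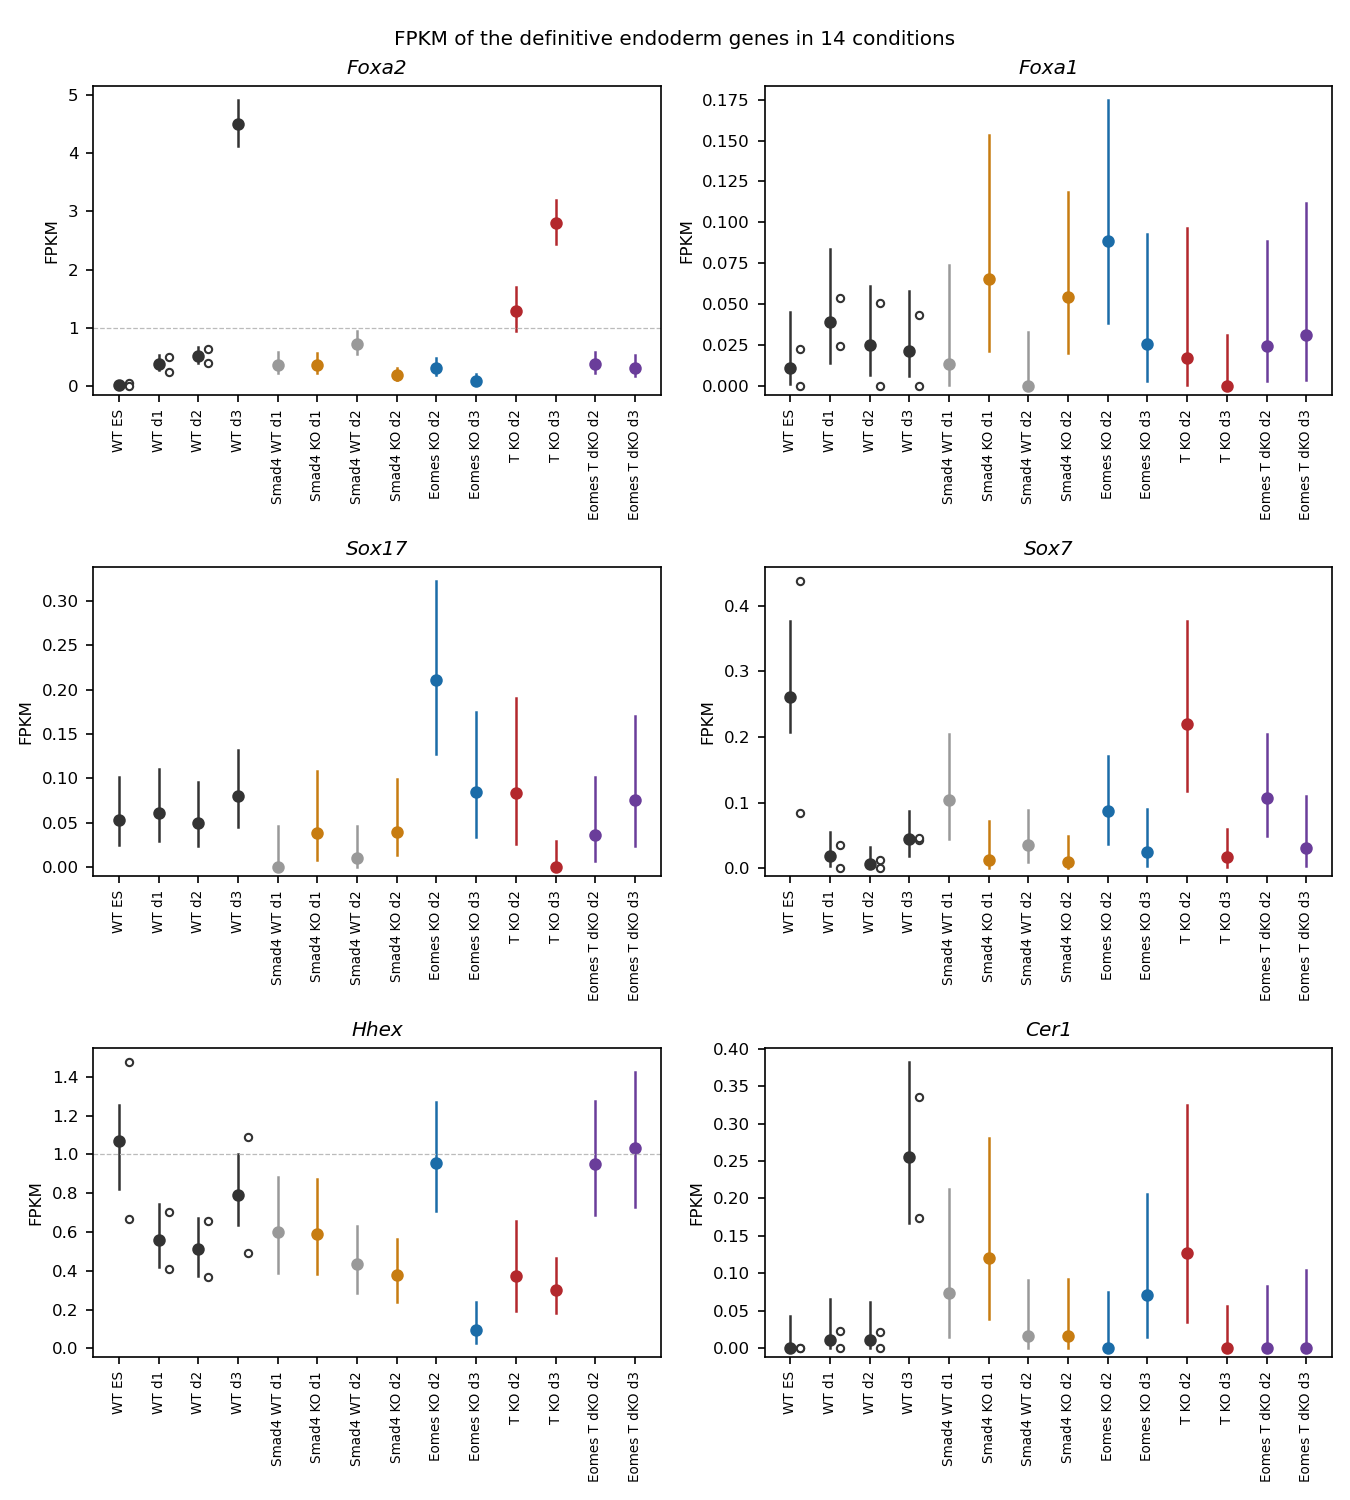
FPKM (vertical axis, linear, a scale of its own for each gene) of the 6 genes in 14 conditions. Filled points are the deposited values, lines their 95% counting intervals, open circles the separate F1G4 WT libraries where these could be told apart, and dashed lines FPKM 1 where the axis reaches it. *Foxa2* stands out on day 3 in WT cells (4.50) and in *T* KO cells (2.80).

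Over the 14 conditions, whose tables were normalized separately, *Foxa2* was highest in WT cells on day 3, followed by the *T* KO at days 3 (2.80) and 2 (1.28). Each of these 3 levels lay above the next one beyond counting error, and the 10 further neighbouring pairs in the order did not, down to *Eomes* KO cells on day 3 (0.0791) and ES cells. *Hhex* was highest in ES cells (1.07), dKO cells on day 3 (1.03) and *Eomes* KO cells on day 2 (0.957), and lowest in *Eomes* KO cells on day 3 (0.0925). That lowest level was the only one of its 13 neighbouring pairs apart beyond counting error. The next level was that of *T* KO cells on day 3, with a lower limit of the log2 ratio of 0.13. This is close enough to 0 to depend on the scale of the 2 columns, which was not corrected. In the order of *Foxa1*, *Sox7* and *Cer1* 0 of 13 neighbouring pairs were apart, and in that of *Sox17* 1 was, *Eomes* KO cells on day 2 (0.211) above the next.

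The genes known to act around *Foxa2* in the anterior streak were compared by lists. Of 15 other definitive endoderm and anterior mesendoderm genes, 9 were examined from day 2 to day 3 in WT cells, of which 4 were higher and 1 lower, with a median log2 ratio (pseudocount 0.1) of 0.08 against 0.01 over all examined genes. *Mixl1*, a mesendoderm homeobox factor, was 1.13 on day 2 and 15.6 on day 3, and *Dkk1*, a Wnt antagonist, was 2.22 and 8.68. *Gsc* and *Lhx1*, named after their values were seen, encode homeobox factors of the organizer and anterior streak. *Gsc* stood at 0.401 on day 2 and 2.80 on day 3, and *Lhx1* at 0.0292 and 1.26. *Foxa3*, the paralog of *Foxa2* and *Foxa1*, went the other way, from 1.95 to 0.530. It was higher than *Foxa2* in ES cells (1.37) and on days 1 and 2, so before day 3 most forkhead A transcript per length was that of *Foxa3*.

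Of the 15 other definitive endoderm and anterior mesendoderm genes, 8 were above FPKM 1 on day 3 in WT cells. The list summed to 457 there and was led by *Epcam* (247, against 234 in ES cells), with *Cldn6* at 96.3. Others of the list were below FPKM 1 throughout. *Gata4* reached at most 0.644 and *Gata6* at most 0.484 in any of the 14 conditions, both in WT cells on day 3, *Cxcr4* at most 0.859 and *Hnf4a* at most 0.0964. Of the 20 extra-embryonic endoderm markers, whose summed FPKM ranged from 67.2 to 267 and was led by *Sparc*, the defining *Afp* (at most 0.609), *Apoa4* (0.199) and *Ihh* (0.0448) were below FPKM 1 throughout, and *Ttr* was listed at 0 in 9 of 14 conditions with a highest value of 1.25. On day 3 in WT cells, 7 of these 20 were above FPKM 1 and 6 at 0. Of the 17 endothelial and blood markers, which summed to 19.8 to 40.9, 5 were above FPKM 1 on day 3 in WT cells. These included *Egfl7* (16.4), which led the list, *Gata2* (3.65), *Pecam1* (3.24) and *Etv2* (2.38), all chosen after their values were seen, whereas *Kdr* reached 0.415, *Cdh5* 0.236 and *Tie1* 0.0705 at most in any condition. Of the 7 node and notochord markers found, summed at 3.61 to 10.6, 3 were above FPKM 1 on day 3 in WT cells. These were *Foxj1* (4.84, against 0.930 in ES cells), *Dand5* (3.03, against 3.02) and *Nog* (1.45, against 0). *Noto* was at 0 in 13 of 14 conditions and *Shh* in 9, with highest values of 0.0118 and 0.0217. The 8 feeder fibroblast markers summed to 0.790 in ES cells and to at most 8.72, in *Eomes* KO cells on day 3. The part of such cells in the values of the 6 genes was not tested.

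In the Nodal arm, the signal that induces endoderm, 15 of 17 genes were above FPKM 1 on day 3 in WT cells. Of its 17 genes, 16 were examined from day 2 to day 3, with 1 higher and 3 lower (median log2 ratio −0.04 against 0.01 over all examined genes). *Nodal*, the ligand, stood at 32.1 on day 2 and 30.8 on day 3, *Foxh1*, its nuclear effector, at 29.9 and 26.9, and *Tdgf1*, the coreceptor, at 569 and 533. *Eomes* was the higher one, from 9.50 to 19.4. The lower ones were *Gdf3* (10.9 to 2.23), *Gdf1* (1.17 to 0.164) and *Pcsk6* (4.01 to 1.21).

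**Figure D4:**
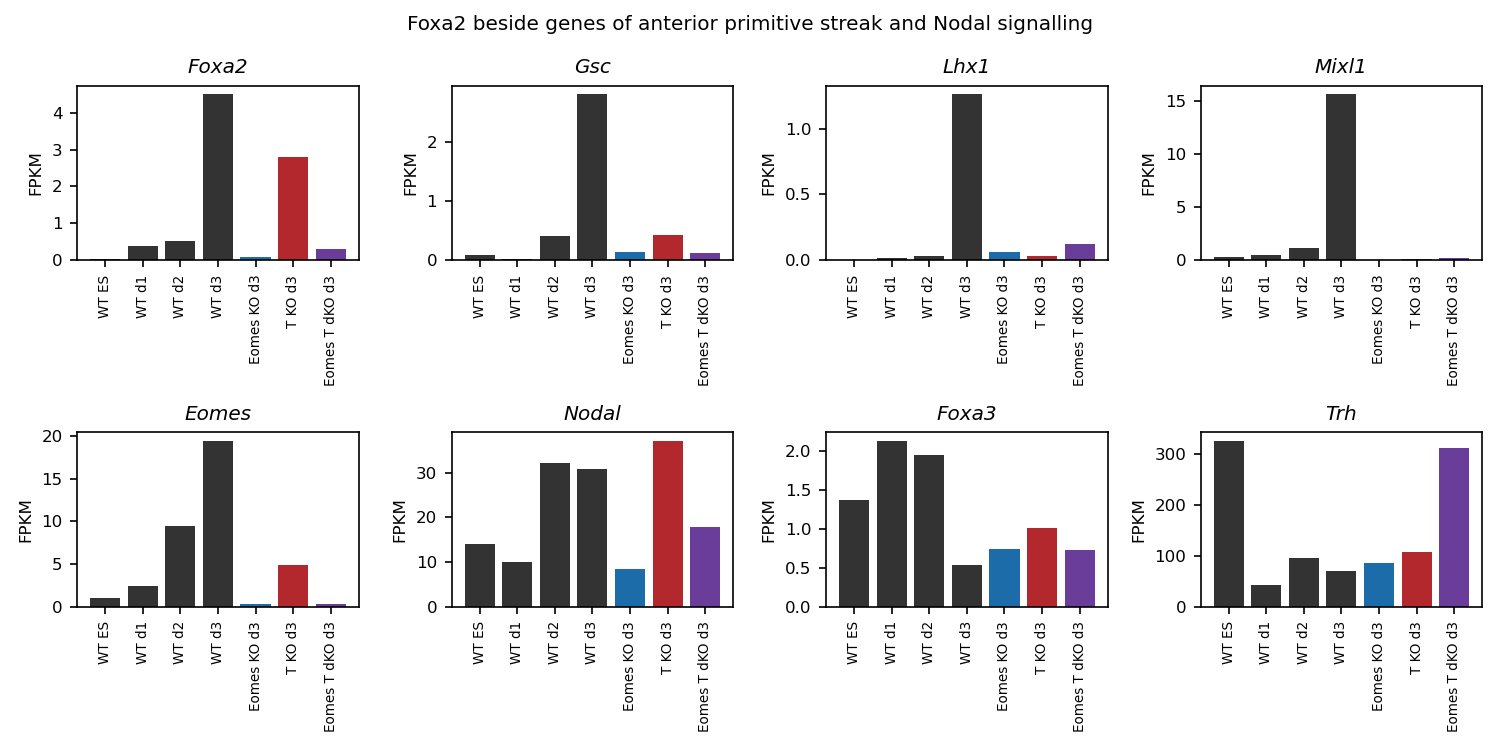
FPKM (vertical axes, linear from 0, a scale of its own for each gene) of *Foxa2* and 7 genes of the fixed lists in WT cells over 4 stages and in the 3 KO lines made from F1G4 cells on day 3. In *T* KO cells *Foxa2* stands at 2.80, whereas *Gsc*, *Lhx1* and *Mixl1* stand at 0.433, 0.0292 and 0.105.

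On day 3 *Foxa2* was lower in both lines that lack *Eomes* than in WT cells. *Foxa2* was 0.0791 in *Eomes* KO cells (4 fragments) and 4.71 in WT cells of the same table, a 59.5-fold difference (log2 −5.89, counting interval −7.77 to −4.53). It was 0.310 in dKO cells (13 fragments) and 4.68 in WT cells, a 15.1-fold difference (log2 −3.91, −4.83 to −3.13). It was 2.80 in *T* KO cells (about 217 fragments) and 4.54 in WT cells, a 1.62-fold difference (log2 −0.70, −0.93 to −0.47). *Foxa2* was thus called lower in the *Eomes* KO and the dKO and not in the *T* KO. These 3 comparisons share their WT libraries, so the KO columns were also set side by side. *Foxa2* was higher in *T* KO than in *Eomes* KO cells by 5.14 on the log2 scale (counting interval 3.77 to 7.03) and higher in dKO than in *Eomes* KO cells by 1.97 (0.28 to 4.04), each a difference of 2 libraries. These columns were normalized separately, and their FPKM summed to 401510 in *Eomes* KO, 491118 in *T* KO and 524868 in dKO cells. That difference in scale was not corrected, and the lower limit of 0.28 is close enough to 0 to depend on it.

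Among the 6 genes, 1 was called lower in *Eomes* KO cells on day 3, where 16.4% of 11629 examined genes were called (9.01% lower and 7.39% higher). In the dKO 1 was called lower, against 11.0% of 11473 (5.53% lower and 5.51% higher), and in the *T* KO 0 were called, against 6.04% of 11239 (3.92% lower and 2.12% higher). The number of members that reached the FPKM minimum was 1, 2 and 1. Day 3 of the *Eomes* KO and day 2 of the *T* KO stood apart from the others in this share, which was 4.77% to 11.0% elsewhere. With genes divided into 4 equal groups by GC content, the median log2 ratio of the highest group minus that of the lowest was 0.18 and 0.23 in these 2 columns, against −0.17 to 0.10 in the other 6. *Foxa2*, with a GC content above that of 85.0% of genes, kept its call in each of them after this trend was subtracted.

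*Hhex* differed between the *Eomes* KO and the dKO on day 3. It was 0.0925 in *Eomes* KO cells (4 fragments) against 0.823 in WT cells (log2 −3.15, counting interval −5.09 to −1.77), and 1.03 in dKO cells (37 fragments) against 0.820 (log2 0.33, −0.30 to 0.89). In *T* KO cells it was 0.302 (20 fragments) against 0.797 (log2 −1.40, −2.21 to −0.70). The direction was the same against either WT library in the *Eomes* KO (−3.61 and −2.48) and the *T* KO (−1.86 and −0.72) and differed in the dKO, where one library gave −0.13 and the other a ratio just past the limit of 1. Between the KO columns, which were normalized separately, *Hhex* was higher in dKO than in *Eomes* KO cells by 3.48 (2.00 to 5.43). Of the *Hhex* values on day 3 only that of the *Eomes* KO lay below both WT libraries by more than the 2.22-fold between them, and *Hhex* was not called in it because both values were below FPKM 1. Against the higher WT library alone, *Hhex* passed the rule in both the *Eomes* KO and the *T* KO.

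*Cer1*, with 25 fragments in WT cells on day 3, had 3 in *Eomes* KO cells (0.0705 against 0.266, log2 −1.91, counting interval −4.31 to −0.23) and 0 in *T* KO and dKO cells. Taken at 3 fragments, with the WT value held as listed, *Cer1* was 5.58-fold lower in *T* KO and 3.11-fold lower in dKO cells. With the counts of both groups free to vary, the upper limits of the log2 ratio were −2.10 and −1.25. *Sox17* was listed at 0 in *T* KO cells on day 3 against about 15 fragments in WT cells (upper limit of the log2 ratio −1.29). These WT fragments could not be divided between the libraries. On day 3, 53.2% of genes of 5 to 20 fragments that could be divided had all of them in 1 WT library. A single library at 0 is therefore weak evidence of a lower level. In *Eomes* KO and dKO cells *Sox17* (0.0848 and 0.0751, against 0.0834 and 0.0829) did not differ beyond counting error. *Sox7* and *Foxa1* had 0 to 2 fragments in each KO on day 3, and no difference was detectable at this depth.

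**Figure D5:**
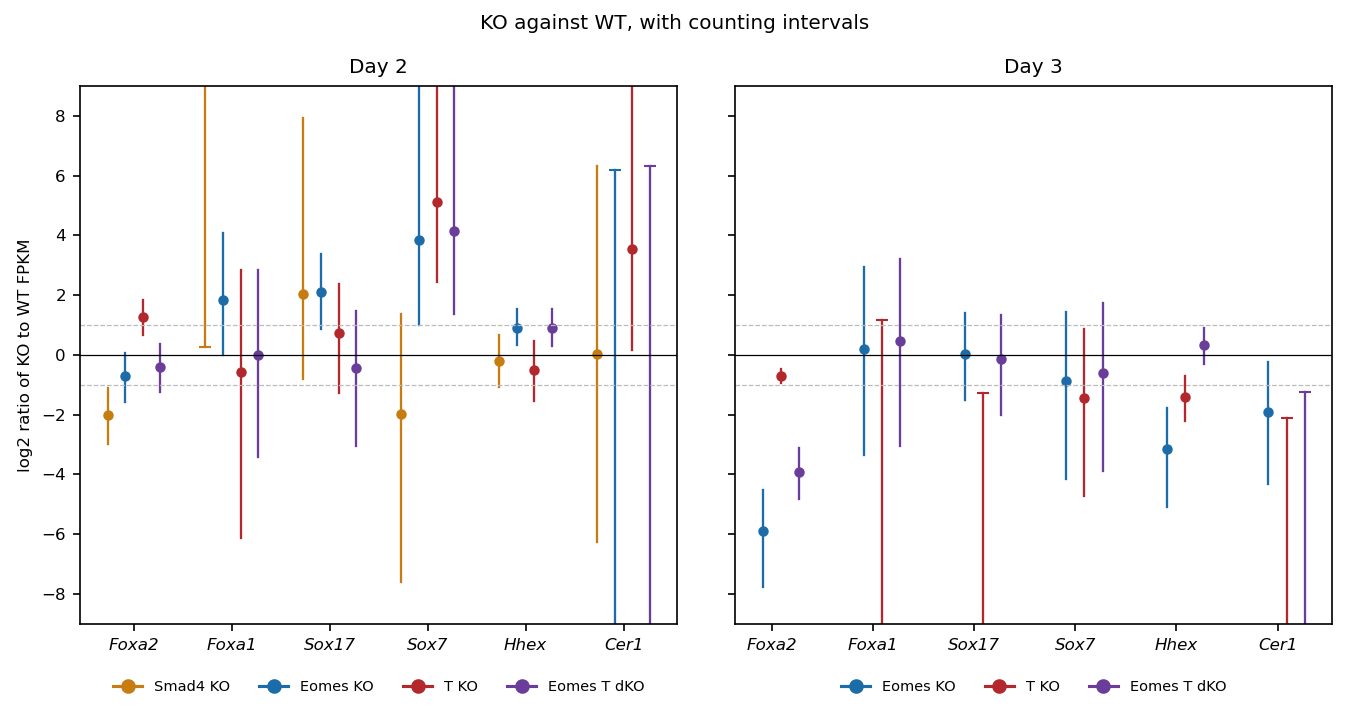
Log2 ratio of KO to WT FPKM (vertical axis) of the 6 genes on days 2 and 3. Points are ratios, lines 95% counting intervals that are drawn to the edge where they are open or run beyond it, short bars the closed end where 1 group was listed at 0, and dashed lines ratios of 1 and −1. On day 3 *Foxa2* lies at −5.89 in *Eomes* KO, −3.91 in dKO and −0.70 in *T* KO cells.

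*Gsc*, *Lhx1* and *Mixl1* were called lower on day 3 in all 3 KO lines, the former pair having been named after their values were seen. *Gsc* was 0.140 in *Eomes* KO, 0.126 in dKO and 0.433 in *T* KO cells (4, 3 and 19 fragments), against 2.94, 2.92 and 2.83 in WT cells. Its log2 ratio in the *T* KO, −2.71 (counting interval −3.45 to −2.00), lay below that of *Foxa2* there. *Lhx1* was 0.0596, 0.126 and 0.0292 in the same order, and *Mixl1* 0.0179, 0.173 and 0.105, against 15.8 to 16.3 in WT cells. The counting intervals of *Foxa2* and *Gsc* in the *T* KO did not overlap. Of the 15 other endoderm and mesendoderm genes, 8, 8 and 9 were examined in the *Eomes* KO, dKO and *T* KO, with 3 lower in each and 0, 2 and 0 higher. Their median log2 ratios were −0.13, −0.23 and 0.38, so that the last was above 0 although its 3 called genes were lower, and over all examined genes they were −0.04, −0.03 and −0.01. *Trh*, an early marker that ES cells also express, was one of those higher in the dKO (311 against 73.0), as was *Dkk1* (18.3 against 9.01).

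*Eomes* itself was lower in *T* KO cells on day 3, 4.83 against 19.6 in WT cells, but stood above its 0.276 in the *Eomes* KO. *Nodal* was 8.31 in *Eomes* KO, 17.8 in dKO and 37.1 in *T* KO cells on day 3, and the Nodal antagonist *Lefty1* was 4.55, 39.4 and 39.1. Of 16 genes of the Nodal arm without *Eomes*, 14 were examined in the *Eomes* KO, of which 6 were lower and 1 higher (median log2 ratio −0.21 against −0.04 over all examined genes), and 14 in the dKO, of which 1 was lower and 2 higher (−0.09 against −0.03). In the *T* KO 15 of 17 were examined, with 2 lower and 1 higher (−0.23 against −0.01).

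On day 2 the KO lines separated the genes differently. *Foxa2* was 1.28 in *T* KO cells (48 fragments) and 0.527 in WT cells, 2.43-fold higher (log2 1.28, counting interval 0.68 to 1.85). It was the 1 of 6 genes called in that comparison, where 15.6% of 11359 examined genes were called (5.7% higher and 9.93% lower). Against the WT libraries one at a time the ratio was 0.96 and 1.69, and the call was lost against the former. *Eomes* was higher in the same *T* KO column, 24.7 against 9.81, and *Foxa3* lower, 0.894 against 2.01.

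In *Eomes* KO and dKO cells on day 2 *Foxa2* was 0.307 and 0.377 (18 and 20 fragments) against 0.506 and 0.505 in WT cells, with counting intervals of the log2 ratio, −1.59 to 0.05 and −1.23 to 0.35, that held equal levels. *Hhex* was 0.957 and 0.948 in them (48 and 43 fragments) against 0.508 and 0.507, log2 0.91 and 0.90, where the higher WT library alone gave 0.56 and 0.55. Of the 6 genes 0 were called in either comparison and 0 reached the FPKM minimum, where 7.52% of all examined genes were called in the *Eomes* KO (3.35% higher and 4.17% lower) and 7.99% in the dKO (3.48% higher and 4.5% lower). The SoxF genes and *Foxa1* were at low counts on day 2. *Sox7* had 1 fragment in both WT libraries together, 8 in the *Eomes* KO, 13 in the *T* KO and 9 in the dKO. Its log2 ratios were 3.84 (counting interval 1.00 to 9.37), 5.13 (2.45 to 10.6) and 4.15 (1.37 to 9.67). The level itself stayed at 0.0865, 0.220 and 0.108, and *Sox7* had 2 fragments in each of the same lines on day 3. *Sox17* was 0.211 in *Eomes* KO cells on day 2, about 20 fragments, against 0.0486 in WT cells (log2 2.12, 0.85 to 3.37), and 0.0356 in dKO cells, which carry the same *Eomes* deletion. *Foxa1* had its highest value of all conditions in the same *Eomes* KO column, 0.0886 from 8 fragments, against 4 fragments in WT cells.

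In the *T* KO on day 2 *Hhex* was 0.374 (12 fragments) against 0.528, with a counting interval of the log2 ratio of −1.53 to 0.46. *Cer1* had 4 fragments there (0.127) and 0 in the *Eomes* KO and the dKO, where 3 fragments would give 0.0608 and 0.0672. WT cells had 1 fragment of *Cer1*, so a lower level was not detectable at this depth.

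In *Eomes* KO cells on day 2 several extra-embryonic markers were at their highest of all conditions, among them *Apoa1* (1.21), *Apob* (0.729), *Cubn* (0.970), *Srgn* (1.09) and *Afp* (0.609). These were named because they were highest there. Of the 20 such markers 9 were examined there, with 3 higher and 1 lower (*Rhox5*, 4.50 against 17.3 in WT cells), and 0 of 20 were at 0. The whole list summed to 120 there and to 164 in WT cells on day 2 of the time course, a separately normalized table. These sums were led by *Sparc* (56.7 and 94.5) and say little of the low markers. By member, 9 were above FPKM 1 in the *Eomes* KO, against 6 above FPKM 1 and 6 at 0 in those WT cells. The median log2 ratio of the examined markers was 0.14, against −0.01 over all examined genes. The part of these markers in the *Sox17*, *Sox7* and *Hhex* values of that column was not tested.

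In the *Smad4* line, profiled up to day 2, the 6 genes were below FPKM 1 in WT and KO cells. On day 1 *Foxa2* was 0.364 in *Smad4* KO and 0.368 in WT cells, with 18 fragments each, and *Hhex* was 0.591 and 0.598, with 25 each. On day 2 *Foxa2* was 0.182 in *Smad4* KO cells (13 fragments) and 0.727 in WT cells (53), a 4.00-fold difference (log2 −2.00, counting interval −3.00 to −1.10). Both values were under FPKM 1, so that 0 of 6 genes were called on day 1 (4.77% of all examined genes called, 2.36% higher and 2.41% lower) and day 2 (5.77%, with 2.56% higher and 3.21% lower). *Hhex* was 0.376 and 0.433 on day 2 (log2 −0.20, −1.07 to 0.65). *Cer1* had 3 and 1 fragments in WT cells on days 1 and 2 and 5 and 1 in *Smad4* KO cells. *Sox7* had 8 and 4 fragments in WT cells and 1 and 1 in the KO, *Sox17* 0 and about 1 against about 3 and 5, and *Foxa1* 1 and 0 against 5 and 6. Among these only the *Sox7* ratio of day 1 (log2 −3.02, −8.49 to −0.12) and the *Foxa1* difference of day 2 left out equal levels by counting. *Foxa1* was higher in the KO there, with a lower limit of the log2 ratio of 0.26.

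*Eomes* was called lower in the *Smad4* KO on day 2, at 1.73 against 24.8, as were *Tdgf1* (3.30 against 187) and *Gsc* (0.123 against 1.14). Of the 17 genes of the Nodal arm 15 were examined, with 6 lower and 0 higher (median log2 ratio −0.21 against −0.01). *Otx2*, an anterior factor, was higher, 54.2 against 15.3.

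The WT cells of the *Smad4* line and F1G4 WT cells, from separately normalized tables, gave *Foxa2* levels of 0.368 and 0.377 on day 1 (log2 −0.04, counting interval −0.95 to 0.78) and 0.727 and 0.510 on day 2 (log2 0.51, −0.08 to 1.06). *Hhex* was 0.598 and 0.556 on day 1 and 0.433 and 0.514 on day 2. On day 1 the lines differed beyond counting error in *Sox7*, at 0.104 in the *Smad4* line and 0.0178 in F1G4 cells (log2 2.54, 0.41 to 5.02), and in *Sox17*, listed at 0 and at 0.0611 (upper limit of the log2 ratio −0.11). Between these lines 10.8% of 11177 examined genes on day 1 and 5.15% of 11119 on day 2 passed the rule, and 0 of the 6 genes reached the FPKM minimum. The *Foxa2* difference in *Smad4* KO cells on day 2 was larger than that between the lines and than the 1.62-fold between the F1G4 WT libraries of day 2.

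The genes whose pattern over the 14 conditions was most like that of *Foxa2*, among 9284 genes that reached FPKM 5, were *Maff* (Pearson r of log2(FPKM + 0.1) 0.87), *Clic5* (0.85) and *Snx16* (0.84). *Maff* stood at 26.9 in WT cells on day 3 and at 6.51, 19.3 and 7.10 in the *Eomes* KO, the *T* KO and the dKO, and *Clic5* at 5.20, 0.579, 3.77 and 0.766. For *Hhex* they were *Tex30* (0.91), *Mkks* (0.91) and *Mad2l1* (0.90), all lowest in the *Eomes* KO on day 3. The conditions share tables and WT libraries, and these values describe likeness only.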

How the data were processed

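RNA-seq of 18 samples in 14 conditions was analysed. The authors trimmed reads with cutadapt 2.9, aligned them with HISAT2 2.1.0 to mm10 with refSeq annotation, processed alignments with SAMtools 1.9 and computed the deposited FPKM with Cuffdiff 2.2.1, correcting for multi-mapped reads and sequence bias but not for effective length. FPKM is scaled to library size and transcript length. Libraries were strand-specific and paired-end, and tables were normalized separately, so KO and WT were compared within a table. The 6 genes, the gene lists and the motifs were chosen with earlier results of these data known.

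Genes were called by the authors' rule, FPKM above 1 in at least one group and log2 ratio beyond 1, without a pseudocount and without a test, as each condition has 1 value. List medians use a pseudocount of 0.1. The gene's own targeted locus was left out of its lists. Named list genes were those called with FPKM of at least 5, at most 4 per list and comparison by size of the log2 ratio, and defining markers below FPKM 1. Further genes are given for context, among them *Foxa3*, *Apoa1*, *Srgn* and *Foxj1*.

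Fragments were recovered from FPKM times RefSeq transcript length (for *Foxa1* 3187 bases, at which all 8 of its values were whole, where the annotation has 3181). This was chosen after the data were seen and tested on simulated data, where both WT steps were found. In WT columns a split between libraries was accepted only if unique. The libraries of a column could not be matched to the replicate numbers of the labels. Counting intervals are 95% exact Poisson for levels and Clopper-Pearson, conditional on the sum, for ratios. For folds, a value of 0 was set at 3 fragments with the other value held as listed. KO columns fit 1 library, as the labels give 1 sample, while legends of the study describe averages of 2. Scripts ran in Python 3.11.15 with scipy 1.17.1, pandas 2.3.3, numpy 2.4.6 and, for plots, matplotlib 3.10.9. Alternatives were pseudocounts of 0.1 and 1, no FPKM minimum, a minimum of 5, a 1.5-fold limit, rescaling to TPM or to the median ratio, the WT column of the time course and, added after seeing the data, subtraction of the GC trend (20 groups of genes) and each WT library alone.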

Additional observations from a re-analysis of the deposited data

Results flagged for a closer look

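*Foxa2* differed from WT in opposite directions in *T* KO cells on 2 days, with a log2 ratio of 1.28 on day 2 and −0.70 on day 3. Neither counting interval held equal levels, but these intervals do not cover replicate error. Against single WT libraries the day 2 ratio was 0.96 and 1.69, and WT fragments of day 3 could not be divided. *Hhex* also differed in opposite directions in *Eomes* KO cells, with 0.91 on day 2 (1.38 and 0.56 against single WT libraries) and −3.15 on day 3. *Cer1* stood at a log2 ratio of 3.55 in *T* KO cells on day 2, from 4 fragments against 1, and was listed at 0 there on day 3 against 25 fragments in WT cells. In each case the difference between the days was not tested, and each rests on 1 KO library per day. *T* KO cells on day 2 and *Eomes* KO cells on day 3 are the 2 columns with the largest shares of called genes, 15.6% and 16.4%.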

How the results depend on the processing

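No paired analysis was possible because the columns carry no replicate numbers and the KO columns hold 1 library. Leaving out a replicate was possible only where WT fragments could be split. The number of the 6 genes called was 0, 0, 1 and 1 from ES cells to day 1, day 1 to 2, day 2 to 3 and ES cells to day 3, 0 and 0 in the *Smad4* KO on days 1 and 2, and on days 2 and 3, 0 and 1 in the *Eomes* KO, 1 and 0 in the *T* KO and 0 and 1 in the dKO. Without the FPKM minimum only genes above 0 in both groups were counted. This left out members listed at 0 in one group, such as *Cer1* and *Sox17* in the *T* KO on day 3 and *Cer1* from ES cells to day 3. The counts then became 3, 1, 3 and 2 along the stages and 2 and 3 in the *Smad4* KO. They were 3 and 3 in the *Eomes* KO, 3 and 2 in the *T* KO and 1 in the dKO on day 2, mostly from genes of a few fragments. With a minimum of FPKM 5, 0 were called in the comparisons of day 3 with day 2 and with ES cells, in the *Eomes* KO and dKO on day 3 and in the *T* KO on day 2, since *Foxa2* did not reach it. With a pseudocount of 1, 0 were called in the *T* KO on day 2. With a 1.5-fold limit, 1 was called from ES cells to day 1 (*Hhex*) and 1 in the *T* KO on day 3 (*Foxa2*). After rescaling to TPM, 1 was called in the *Smad4* KO on day 2 (*Foxa2*), 2 in the *Eomes* KO on day 3 (*Foxa2* and *Hhex*) and 1 in the *T* KO on day 3 (*Hhex*), as FPKM passed 1. TPM moved the median log2 ratio of all examined genes by −0.43 to 0.27, and by over 0.1 in 6 of 12 comparisons. It turned 2 of 62 member ratios, those of *Foxa2* and *Hhex* in the *Smad4* KO on day 1, both within 0.016 of 0. Median scaling turned 0 of 62. The WT column of the time course, a pseudocount of 0.1, median scaling and the subtracted GC trend left every such count within 1.5 times, and 0 ratios of called genes changed direction under the alternatives run. Of 537 values of single genes under these alternatives, 30 passed the rule newly and 7 no longer did. Depth limits *Foxa1*, *Sox17*, *Sox7* and *Cer1*, with at most 8, 20, 46 and 25 fragments in a condition.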
